A study of Mus musculus with 16 samples.

Results

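The 93 genes described here encode nuclear subunits of the 5 enzyme complexes of the mitochondrial respiratory chain, with the assembly factors that share their names. They were chosen by symbol alone (Ndufa, Ndufb, Ndufc, Ndufs, Ndufv, Uqcr, Atp5 and Cox4 to Cox8, with Sdha, Sdhb, Sdhc and Sdhd) from 19505 genes measured on Clariom S arrays, and each had 1 probe set. By role they are 6 core subunits, 30 accessory subunits and 8 assembly factors of complex I, 4 subunits of complex II, 8 of complex III, 20 of complex IV and 17 of complex V.

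The arrays measured RNA from sorted GFP+ and GFP- cells. The cells came from S100a5-tauGFP mice, whose olfactory mucosa had been dissected and dissociated. S100a5 is a calcium-binding protein of olfactory sensory neurons whose expression follows their activity, so GFP reports that gene. Per the labels, 24 mice of both sexes, 7 to 12 weeks old, were kept singly in clean air chambers for 40 h, and from 26 h on received pulses of 10 s, once in 20 min, of either octanol or the vehicle, which was filtered air. Each of the 4 groups (vehicle GFP+, vehicle GFP-, octanol GFP+, octanol GFP-) had 4 arrays, each from the pooled cells of 3 mice. All mice carried the reporter, and both fractions of an exposure with the same number were taken as 1 pool of mice, which the labels do not state for each array.

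Complexes I and II pass electrons from NADH and succinate to coenzyme Q, complex III passes them on to cytochrome c, and complex IV, cytochrome c oxidase, hands them to oxygen. The protons pumped along the way drive complex V, the ATP synthase. Olfactory sensory neurons spend ATP on ion transport and on signalling in their cilia. Several complex IV subunits also exist in a second form restricted to tissues such as muscle, lung or testis.

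S100a5 RNA followed the sort, and the tissue's neuron markers were present. S100a5 was 0.82 log2 higher in GFP+ than in GFP- cells after vehicle (limma adjusted p = 0.000638) and 0.86 higher after octanol (limma adjusted p = 0.000461). Omp, the marker of mature olfactory sensory neurons, stood at 18.18 and 18.11 log2 in the GFP+ and GFP- cells after vehicle, so both fractions held these neurons. Of 8 markers of these neurons, Omp included, 2 were higher in GFP+ cells after vehicle and 3 after octanol, and 0 were lower. These are 25% and 37.5%, against 28.2% and 29.9% of all genes called. All 8 differences were above 0 after each exposure, with medians of 0.15 and 0.23 log2, against 0.13 and 0.14 for all genes. Markers of other cell types also differed between the fractions. All 6 neutrophil genes, all 7 monocyte and macrophage genes, all 6 lymphoid genes, all 6 microvillar and tuft cell genes and all 4 measured cell cycle genes were lower in GFP+ cells after both exposures. Of 8 immature neuron genes 5 were lower after each exposure, with 0 higher after vehicle and 1 after octanol, and of 6 sustentacular and 5 Bowman gland genes 4 and 3 were lower after each. Of 3 ciliated respiratory cell genes 2 were higher in GFP+ cells after each. The log2 of the summed neutrophil signal was 9.87 to 11.4 in vehicle GFP+ arrays and 18.5 to 19.2 in vehicle GFP- arrays, and 11.2 to 14.2 and 18.8 to 19.5 after octanol. The part of these cells in the differences given here was not tested, and in bulk RNA fewer cells of a type cannot be told apart from less RNA per cell.

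The respiratory chain genes were strongly expressed in both fractions. Signals are log2 values, and background was set at 6.32 log2, the 95th percentile of the mean signals of 321 vomeronasal receptor genes. Of the 93 genes, 88 had a mean above it and were above it on all 16 arrays. The remaining 5 were restricted forms: Cox6b2 (mean 5.71), Cox8b (5.62), Cox4i2 (5.83), Cox7b2 (6.22) and Ndufa4l2 (4.19). The median of the 93 genes was 13.29 ± 0.15 in vehicle GFP+ arrays, 13.14 ± 0.16 in vehicle GFP- arrays, 13.35 ± 0.06 in octanol GFP+ arrays and 13.23 ± 0.07 in octanol GFP- arrays (SD, n = 4).

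The promoters of the 2 pairs of complex IV forms compared below, and of Atp5g2, are printed to set each restricted form that passed the threshold, Cox6b2 and Cox7a1, beside its housekeeping form, which did not, and to show the NRF1 sequence in a member that passed. They were picked after the values and motif matches were seen, and other members that passed are not printed. Each is the 250 bases before the start of transcription, 5′ to 3′ on the gene's own strand, from RefSeq on GRCm38.p6, with matches to the motifs named below in capitals. Cox6b2 lies at chr7:4753095-4753344 on the minus strand, Cox6b1 at chr7:30626115-30626364 on the minus strand, Cox7a1 at chr7:30183921-30184170 on the plus strand, Cox7a2 at chr9:79759854-79760103 on the minus strand and Atp5g2 at chr15:102671048-102671297 on the minus strand.
Cox6b2: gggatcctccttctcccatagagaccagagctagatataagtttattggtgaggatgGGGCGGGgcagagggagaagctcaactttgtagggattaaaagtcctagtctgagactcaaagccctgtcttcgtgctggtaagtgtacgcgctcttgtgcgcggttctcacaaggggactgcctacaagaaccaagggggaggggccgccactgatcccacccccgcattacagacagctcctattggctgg
Cox6b1: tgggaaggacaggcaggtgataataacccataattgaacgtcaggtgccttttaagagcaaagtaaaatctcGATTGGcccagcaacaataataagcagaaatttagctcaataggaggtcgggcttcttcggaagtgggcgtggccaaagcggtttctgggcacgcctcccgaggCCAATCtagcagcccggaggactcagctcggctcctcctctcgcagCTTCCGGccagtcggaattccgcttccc
Cox7a1: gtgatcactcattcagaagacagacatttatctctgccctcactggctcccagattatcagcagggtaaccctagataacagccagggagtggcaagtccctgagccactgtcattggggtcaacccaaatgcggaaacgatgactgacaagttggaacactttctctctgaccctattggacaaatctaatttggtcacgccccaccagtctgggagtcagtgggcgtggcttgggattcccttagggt
Cox7a2: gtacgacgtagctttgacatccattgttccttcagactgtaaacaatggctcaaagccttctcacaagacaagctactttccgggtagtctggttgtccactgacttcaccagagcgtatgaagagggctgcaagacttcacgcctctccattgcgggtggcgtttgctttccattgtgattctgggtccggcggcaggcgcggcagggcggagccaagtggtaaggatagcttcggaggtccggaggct
Atp5g2: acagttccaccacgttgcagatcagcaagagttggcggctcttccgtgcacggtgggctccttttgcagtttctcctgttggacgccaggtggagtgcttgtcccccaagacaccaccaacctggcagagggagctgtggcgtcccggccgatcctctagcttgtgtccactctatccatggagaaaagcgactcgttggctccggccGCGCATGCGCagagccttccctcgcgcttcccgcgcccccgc

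Windows were found for 77 of the 93 genes (82 windows) and for 15691 of all genes tested (19143 windows). A first look at these windows tried 9 patterns, and all 9 are given, searched on both strands, with no test. The binding sequence of NRF1, a regulator of nuclear genes for mitochondrial proteins, was searched in 3 overlapping spellings. The NRF1 consensus with 1 free base in its middle lay in 18.3% of the windows of respiratory chain genes and 5.48% of all windows. The same consensus with that base fixed, as it stands in the Atp5g2 window, lay in 6.10% and 1.12%, and its shorter part GCATGCGC in 10.98% and 3.03%. A count per gene gave the consensus with the free base for 13 of 77 genes (16.9%) and for 5.63% of all genes. That count can leave out a match in 1 of several windows of a gene. The longer YY1 consensus named below, for example, lay in 1 window but was counted for 0 of the 77 genes. The ETS pattern CCGGAAG lay in 17.1% against 9.25%. For YY1, ATGGCGG lay in 7.32% against 2.63%, and a longer YY1 consensus that contains it in 1.22% against 0.397% (1 and 76 windows). CCAATC lay in 20.7% against 16.6%, GGGCGGG in 30.5% against 32.3% and TATAAA in 9.76% against 11.4%. The windows of respiratory chain genes held a median of 14.5 CpG against 10 over all windows. The NRF1, ETS, YY1 and GGGCGGG patterns contain CpG themselves, and the shares given were not adjusted for CpG.

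In the printed windows, Atp5g2 held the NRF1 sequence 42 to 33 bases before the start. Cox6b1 held the ETS pattern 28 to 22 bases before the start and CCAATC at 74 to 69 and 178 to 173. Cox6b2 held GGGCGGG at 193 to 187, and neither Cox7a1 nor Cox7a2 held any of the 9 patterns. Cox7a1 and Cox6b2 had 4 and 8 CpG, and their housekeeping counterparts Cox7a2 and Cox6b1 had 14 each. A match is a description of letters and not of a bound site.

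With the values as deposited, respiratory chain genes differed little between the fractions: 88 and 85 of 93 missed the threshold after vehicle and octanol. The share called depended on the scaling, as given in the next paragraph. After vehicle, 3 of 93 were higher and 2 lower in GFP+ cells at a limma adjusted p under 0.05, or 5.38%, against 28.2% of all genes (14.7% higher and 13.5% lower). After octanol 7 were higher and 1 lower, or 8.60%, against 29.9% of all genes (16.7% higher and 13.2% lower). At an unadjusted limma p under 0.05 there were 14 genes after vehicle and 19 after octanol, against 40.6% and 41.6% of all genes. The fitted difference exceeded 0.5 log2 in 3 genes after each exposure (3.23%), against 22.9% and 23.1% of all genes; this bound was chosen after the values were seen. The interquartile range of the differences was 0.19 log2 after vehicle and 0.20 after octanol, against 0.41 for all genes in both. For 72 genes after vehicle and 69 after octanol the 95% confidence interval lay within 0.5 log2 of 0, against 7382 and 7192 of all 19505 genes. These intervals hold for the values as deposited.

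No direction can be given for the family as a whole, since it depends on how arrays are scaled. The share of its genes called, set beside that of all genes, depends on the scaling too. The median difference was 0.11 log2 against 0.13 for all genes after vehicle, and 0.09 against 0.14 after octanol. It was above 0 in 70 genes after vehicle and 71 after octanol, against 66.1% and 67.3% of all genes. With each array centred on its median gene, 75 of 93 were higher and 1 lower after vehicle, and 68 and 1 after octanol. Of all genes 65.4% and 58.5% were then higher and 10.2% and 10.4% lower, so the family was not called less often than all genes. With each array centred on its odorant receptors, 0 were higher and 9 lower after vehicle, and 0 and 49 after octanol. Of all genes 3.23% and 2.75% were then higher and 22.5% and 44.8% lower. In that setting the family was called less often than all genes after vehicle but not after octanol. These centrings moved the median of all genes from 0.13 to 0.46 and to -0.17 after vehicle, and from 0.14 to 0.41 and to -0.36 after octanol. Relative to the median of all genes the family stood at -0.01 and -0.05, which centring cannot change since it shifts all genes of an array alike, and at -0.04 and -0.07 after quantile normalization.

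**Figure D1:**
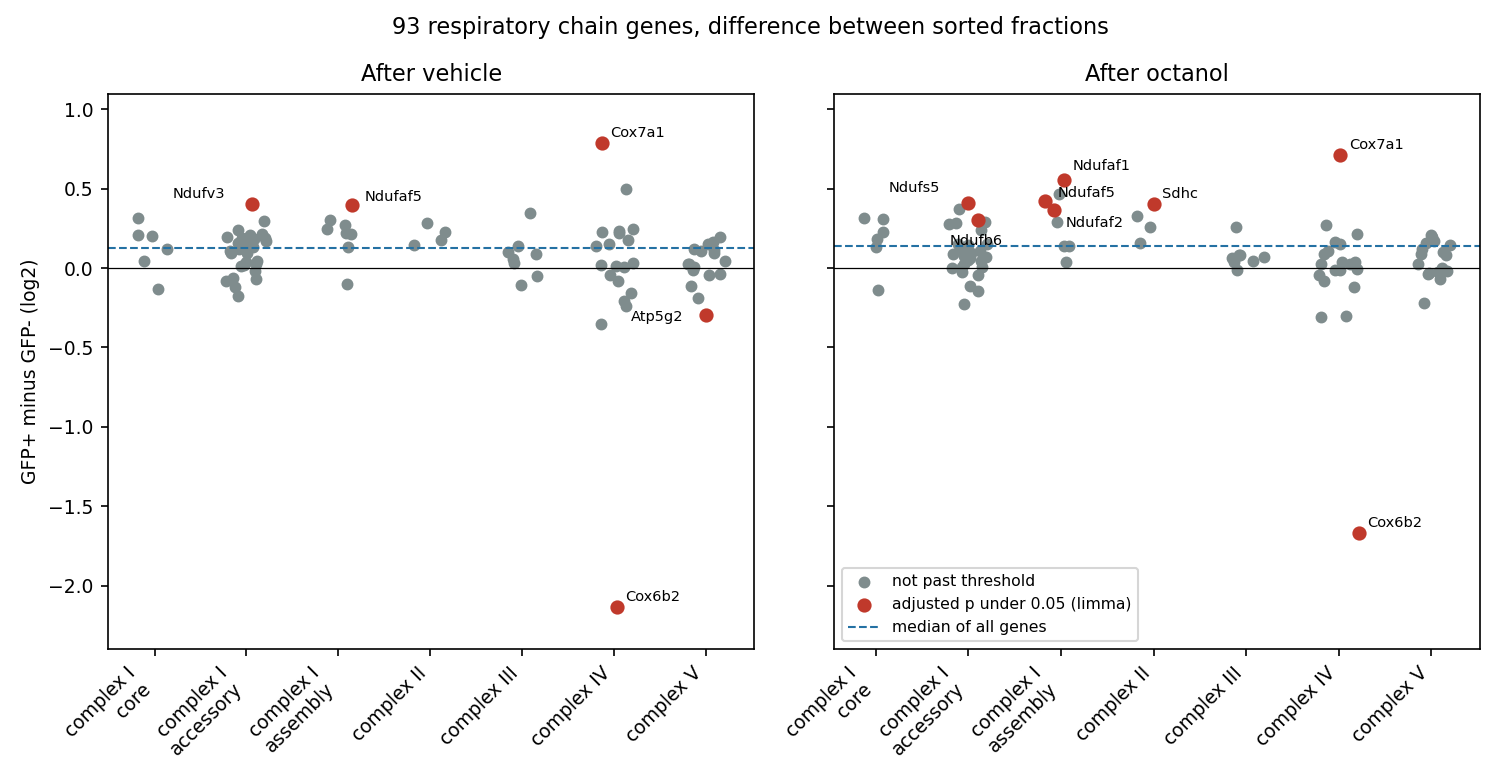
Each point is 1 of the 93 genes, placed by its role, and its height is the GFP+ minus GFP- difference in log2 units after vehicle (left) and octanol (right), from limma fits with 4 pools for each exposure. Red points had an adjusted p under 0.05, the dashed line is the median of all genes (0.13 and 0.14), and Cox7a1 lies at 0.79 and 0.71. Cox6b2 is drawn at its fitted value, but its GFP+ signals lie under background, so only at least 1.41-fold and at least 1.21-fold lower can be read for it.

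Cox6b2 was lower in GFP+ cells after both exposures, by an amount that only a bound can give. It encodes the testis form of a complex IV subunit. After vehicle its signals were 4.46, 3.95, 5.16 and 4.99 in GFP+ arrays and 6.99, 6.18, 6.96 and 6.97 in GFP- arrays. After octanol they were 5.09, 4.58, 5.15 and 4.70 in GFP+ arrays and 6.53, 6.18, 6.82 and 6.68 in GFP- arrays. Every GFP+ value lay under every GFP- value, all 8 GFP+ values lay under background, and 3 of 4 GFP- values of each exposure lay above it. The fitted difference, which rests on GFP+ signals under background and is no measured size, was -2.14 log2 (SE 0.14, limma adjusted p = 1.9e-06) after vehicle and -1.67 (SE 0.14, limma adjusted p = 9.9e-06) after octanol. With values under background raised to it, that is at least 1.41-fold lower after vehicle and at least 1.21-fold lower after octanol. The call stood in all 14 alternatives run for each exposure. The housekeeping form, Cox6b1, differed by 0.01 and 0.04 log2 (limma adjusted p = 0.959 and 0.822).

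Cox7a1 had the largest difference in favour of GFP+ cells. It encodes the heart and skeletal muscle form of another complex IV subunit. After vehicle its signals were 9.02, 8.56, 8.60 and 8.85 in GFP+ arrays and 7.97, 7.95, 7.93 and 8.03 in GFP- arrays, a difference of 0.79 log2 (SE 0.16, limma adjusted p = 0.00466). After octanol they were 8.74, 8.82, 8.65 and 8.88 in GFP+ arrays and 8.60, 8.20, 7.73 and 7.71 in GFP- arrays, a difference of 0.71 (SE 0.16, limma adjusted p = 0.00798). The groups did not overlap after either exposure, and the GFP- arrays of octanol pools 1 and 2 were nearest to the GFP+ values. The call stood in 14 of 15 alternatives after each exposure, and was lost with arrays centred on odorant receptors (0.48 log2, limma adjusted p = 0.108 after vehicle; 0.21 log2, limma adjusted p = 0.388 after octanol). Its housekeeping counterpart Cox7a2 differed by 0.17 and -0.12 log2 (limma adjusted p = 0.486 and 0.636).

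Skeletal muscle markers were measured beside Cox7a1. Of 5 (Acta1, Ckm, Myh4, Tnnt3 and Actn3), 2 were higher in GFP+ cells after vehicle and 0 after octanol, and 2 had mean signals above background in each group. The log2 of their summed signal was 10.7 to 10.9 in GFP+ and 10.0 to 10.8 in GFP- arrays after vehicle, and 10.6 to 11.2 and 10.5 to 10.7 after octanol. The median difference of these markers was 0.34 log2 after vehicle and 0.01 after octanol. Acta1 was among those under background in every group (means 4.40 to 4.74). The part of muscle cells in the Cox7a1 difference was not tested.

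The other restricted forms of complex IV did not pass the threshold. Cox8c, a testis form, differed by 0.50 log2 after vehicle (limma adjusted p = 0.0751) and by -0.04 after octanol (limma adjusted p = 0.886). Cox6a2, a heart and muscle form, differed by -0.21 and -0.30 log2 (limma adjusted p = 0.362 and 0.196). Cox4i2, Cox8b and Ndufa4l2 were under background on all 16 arrays and Cox7b2 was above it on 6, so no size is given for them. The housekeeping forms Cox4i1, Cox6a1, Cox7b, Cox8a and Ndufa4 differed by 0.01 to 0.25 log2 after vehicle and by -0.01 to 0.11 after octanol. Cox7c, a small housekeeping subunit with the highest mean of the complex, differed by -0.08 and 0.03.

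Cox7a2l, which joins complexes III and IV into supercomplexes, was lower in GFP+ cells in all 4 pools of each exposure without passing the threshold. Its signals after vehicle were 12.83, 12.63, 12.53 and 12.36 in GFP+ arrays and 12.94, 13.34, 12.59 and 12.90 in GFP- arrays. The difference was -0.35 log2 (SE 0.13, limma adjusted p = 0.0659) after vehicle and -0.31 (SE 0.13, limma adjusted p = 0.0979) after octanol. It was singled out after its values were seen.

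Complex I, with the most genes of any complex here, held most of the other calls, and they came from accessory subunits and assembly factors. Of its 6 core subunits, which carry the flavin and the iron-sulfur clusters, 0 passed the threshold after either exposure, with 1 and 2 at an unadjusted limma p under 0.05 and median differences of 0.16 and 0.21 log2. Ndufv1, the NADH-binding subunit, differed by 0.21 after vehicle (limma adjusted p = 0.179) and 0.32 after octanol (limma adjusted p = 0.0516). Of the 30 accessory subunits, 1 was higher in GFP+ cells after vehicle and 2 after octanol, and 0 were lower. These are 3.33% and 6.67% of the accessory subunits, against 28.2% and 29.9% of all genes called.

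Ndufv3, an accessory subunit next to the NADH-binding site, had signals of 10.72, 10.59, 10.59 and 11.00 in vehicle GFP+ arrays and 9.93, 10.37, 10.57 and 10.43 in vehicle GFP- arrays. The groups stood apart by a narrow margin, since the GFP- array of pool 3 nearly reached the lowest GFP+ values. The difference was 0.40 log2 (SE 0.13, limma adjusted p = 0.0491), and 0.37 (limma adjusted p = 0.0648) after octanol. The vehicle call was lost on leaving out any pool but vehicle pool 3, with limma adjusted p from 0.0584 without octanol pool 1 to 0.198 without vehicle pool 1, and without the pool as a block (limma adjusted p = 0.0727). Ndufs5 and Ndufb6 passed after octanol alone, by 0.41 and 0.30 log2 (limma adjusted p = 0.0424 and 0.0447), against 0.30 and 0.14 after vehicle (limma adjusted p = 0.127 and 0.316). Ndufs5 lost the call without any 1 octanol pool (limma adjusted p = 0.0621, 0.0626, 0.163 and 0.0864 for pools 1 to 4) and without vehicle pools 2 and 4 (0.0544 and 0.0576). Ndufb6 lost it without octanol pools 2, 3 and 4 (limma adjusted p = 0.111, 0.153 and 0.128), without any 1 vehicle pool (0.0571 to 0.0640), and without the pool as a block (0.176).

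Of the 8 complex I assembly factors, which help to build the complex and are absent from the finished enzyme, 1 was higher in GFP+ cells after vehicle and 3 after octanol, with median differences of 0.23 and 0.33 log2. These are 12.5% and 37.5% of a list of 8, against 28.2% and 29.9% of all genes called. Ndufaf1, part of the intermediate assembly complex in the inner membrane, had signals of 10.27, 9.97, 9.98 and 10.09 in octanol GFP+ arrays and 9.52, 9.52, 9.64 and 9.42 in octanol GFP- arrays. All 4 GFP+ values lay above all 4 GFP- values, with a difference of 0.55 log2 (SE 0.11, limma adjusted p = 0.00406). The call stood in 14 of 15 alternatives and was lost with arrays centred on odorant receptors (0.06 log2, limma adjusted p = 0.690). After vehicle Ndufaf1 differed by 0.30 (limma adjusted p = 0.0667).

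Ndufaf5, an enzyme that modifies a core subunit during assembly, passed after both exposures. Its signals were 10.34, 10.26, 9.88 and 9.68 in vehicle GFP+ arrays and 9.65, 10.01, 9.37 and 9.54 in vehicle GFP- arrays, so the groups overlapped although each pool had a higher GFP+ value. The difference was 0.40 log2 (SE 0.12, limma adjusted p = 0.0349) after vehicle and 0.42 (SE 0.12, limma adjusted p = 0.0256) after octanol. The vehicle call was lost without vehicle pools 1, 2 and 3 (limma adjusted p = 0.145, 0.0553 and 0.113) and octanol pool 4 (0.0501). The octanol call was lost without octanol pools 1, 3 and 4 (0.0893, 0.0846 and 0.0905), and without the pool as a block both were lost (limma adjusted p = 0.101 and 0.0771). Ndufaf2, a chaperone of the same complex, passed after octanol by 0.36 log2 (limma adjusted p = 0.0468), and lost the call without any 1 octanol pool (0.106, 0.173, 0.0907 and 0.0646) or without vehicle pools 2 and 4 (0.0622 and 0.0631).

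**Figure D2:**
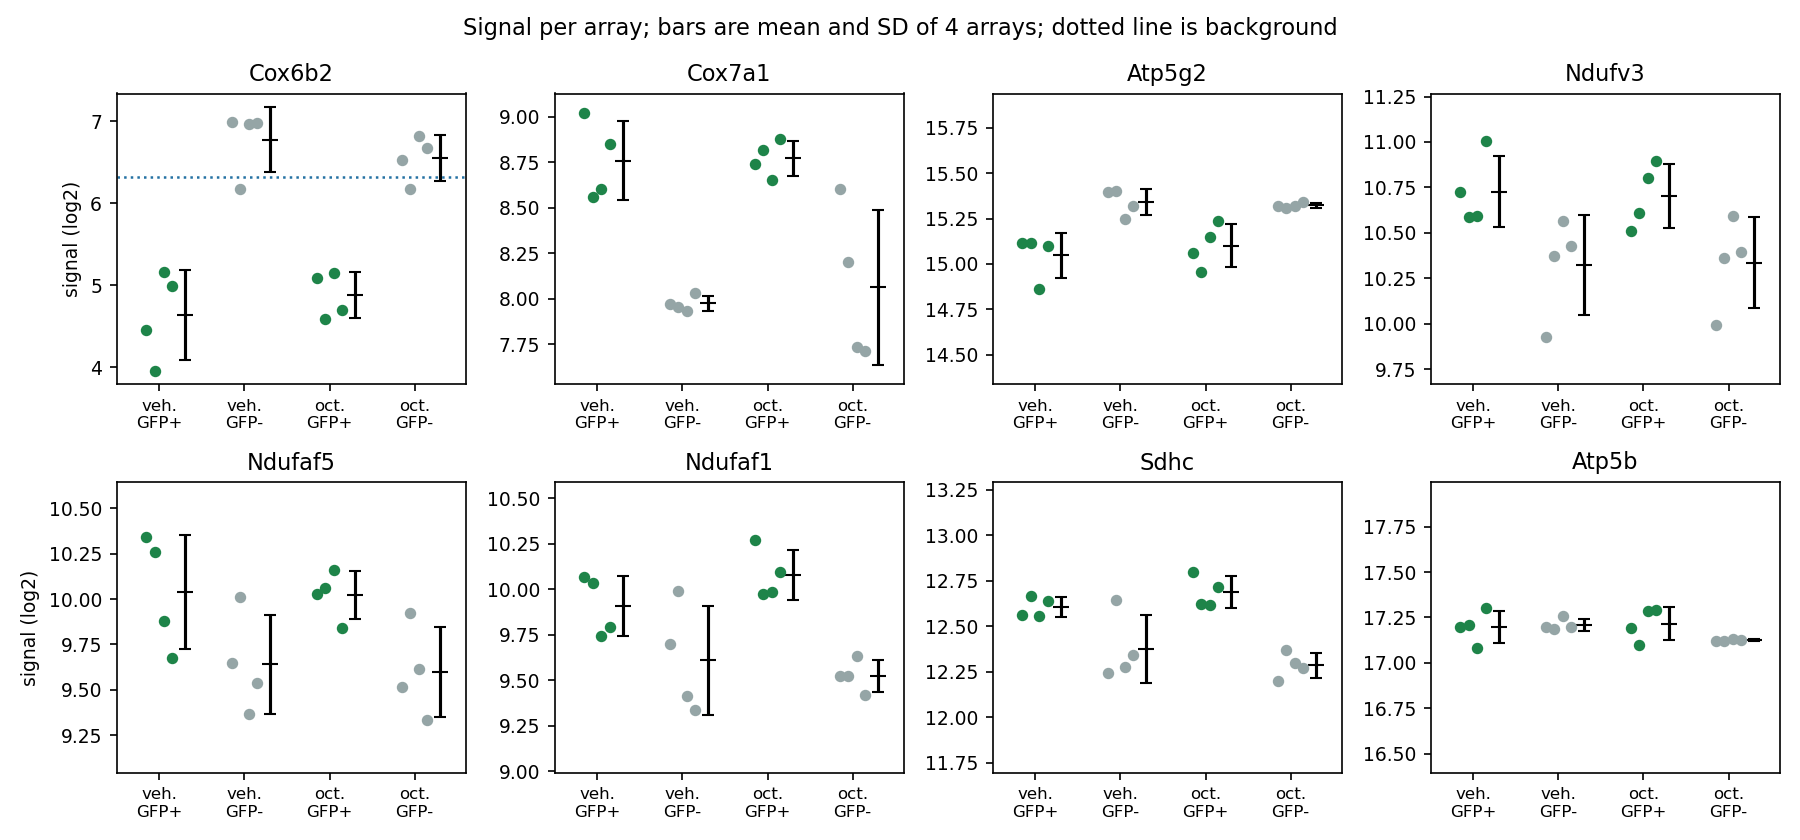
Points are the log2 signals of single arrays in the 4 groups (veh., vehicle; oct., octanol; GFP+ green, GFP- grey) for 8 genes, with the mean and SD of 4 arrays beside them. The dotted line is background at 6.32 log2, and the GFP+ values of Cox6b2 all lie under it while its GFP- values lie around and above it.

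The 4 subunits of complex II, which is also the succinate dehydrogenase of the citric acid cycle, had differences above 0 as deposited and below 0 with arrays centred on odorant receptors, and 1 of them passed after octanol. Sdhc, a membrane anchor of the complex, had signals of 12.80, 12.62, 12.62 and 12.72 in octanol GFP+ arrays and 12.20, 12.37, 12.30 and 12.27 in octanol GFP- arrays. The groups did not overlap, and the difference was 0.40 log2 (SE 0.10, limma adjusted p = 0.0142), against 0.23 after vehicle (limma adjusted p = 0.118). The call was lost without octanol pools 1 and 4 (limma adjusted p = 0.0643 and 0.0564). The flavoprotein Sdha differed by 0.28 and 0.33 log2 (limma adjusted p = 0.104 and 0.0630), the iron-sulfur subunit Sdhb by 0.18 and 0.16 (0.178 and 0.234), and the other anchor Sdhd by 0.15 and 0.26 (0.339 and 0.107).

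None of the 8 complex III genes passed the limma threshold after either exposure, with 1 at an unadjusted p under 0.05 after vehicle and 0 after octanol. Their differences ran from -0.11 to 0.35 log2 after vehicle and from -0.01 to 0.26 after octanol. Uqcrc2, a core protein of the complex, stood at the upper end both times (limma adjusted p = 0.105 and 0.207), and Uqcrb, the subunit with the highest mean, differed by -0.11 and 0.04 (limma adjusted p = 0.420 and 0.794).

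Of the 17 complex V genes 1 was lower in GFP+ cells after vehicle and 0 passed after octanol. Atp5g2, 1 of 3 genes for the same proton-carrying ring subunit, had signals of 15.11, 15.11, 14.86 and 15.10 in vehicle GFP+ arrays and 15.39, 15.40, 15.25 and 15.32 in vehicle GFP- arrays. All 4 GFP+ values lay below all 4 GFP- values, with a difference of -0.30 log2 (SE 0.09, limma adjusted p = 0.0349). After octanol the groups again did not overlap, and the difference was -0.22 (SE 0.09, limma adjusted p = 0.0909). The vehicle call was lost on leaving out any 1 vehicle pool (limma adjusted p = 0.0863, 0.0923, 0.109 and 0.0769 for pools 1 to 4) and with arrays centred on their median, where the difference was 0.04. The other genes for this subunit, Atp5g1 and Atp5g3, differed by -0.19 and 0.19 log2 after vehicle (limma adjusted p = 0.326 and 0.157) and by -0.07 and 0.16 after octanol (0.730 and 0.231). Atp5b, the catalytic beta subunit, differed by -0.01 and 0.09 (limma adjusted p = 0.934 and 0.487).

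In all, 10 genes passed after at least 1 exposure and 83 after neither, and Cox6b2, Cox7a1 and Ndufaf5 passed after both. With arrays centred on odorant receptors the calls of all these genes were lost except those of Cox6b2 and Atp5g2. Quantile normalization ended those of Ndufb6 and Ndufs5 (limma adjusted p = 0.0877 and 0.0549), and a trended prior that of Ndufaf2 (0.0622). A call after 1 exposure and not the other is not a difference between exposures. The test of that difference, the octanol effect on the GFP+ minus GFP- difference, gave 0 calls in limma among the 93 genes and among all genes (0% called). At an unadjusted p under 0.05 it gave 1 of the 93, Cox6b2, against 4.54% of all genes. For Cox6b2 the difference between fractions was 0.46 log2 smaller after octanol (SE 0.19, limma adjusted p = 0.998), but its GFP+ values lay under background after both exposures. Cox8c followed with -0.54 (SE 0.27), Ndufaf1 with 0.25 (SE 0.15) and Atp5pb, a stalk subunit of complex V, with 0.19 (SE 0.12), all at a limma adjusted p of 0.998. The effect was above 0 in 50 genes, against 55.5% of all genes, and exceeded 0.5 log2 in 1, Cox8c, against 5.13%. For 60 genes the 95% confidence interval of this effect lay within 0.5 log2 of 0, against 5982 of all 19505 genes.

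No respiratory chain gene passed the threshold for octanol against vehicle in either fraction. In GFP+ cells 0 of 93 passed, 1 had an unadjusted limma p under 0.05 (3.73% of all genes did), and 0% of all genes were called. In GFP- cells 0 passed and 1 had an unadjusted limma p under 0.05 (4.58% of all genes), with 0% of all genes called. The confidence interval lay within 0.5 log2 of 0 for 82 genes in GFP+ and 75 in GFP- cells, against 11341 and 10754 of all 19505 genes. No fitted difference exceeded 0.5 log2 among the 93, against 1.37% of all genes in GFP+ and 2.07% in GFP- cells.

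In GFP+ cells the smallest p belonged to Atp5e, the epsilon subunit of the ATP synthase stalk. Its signals were 9.44, 9.43, 9.55 and 9.45 after vehicle and 9.52, 9.75, 9.85 and 9.86 after octanol, so the lowest octanol value lay below the highest vehicle value. The difference was 0.28 log2 (SE 0.11, limma adjusted p = 1.00). Ndufaf2, Ndufb6 and Ndufs5 followed at 0.31, 0.25 and 0.20 log2, at the same adjusted p.

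In GFP- cells the smallest p belonged to Cox7a2. Its signals were 12.61, 12.92, 12.89 and 12.74 after vehicle and 13.56, 13.22, 12.97 and 12.88 after octanol, and the groups overlapped. The difference was 0.37 log2 (SE 0.16, limma adjusted p = 0.982). Cox7b, Ndufa6 and the small complex V subunit Atp5mpl followed at 0.32, 0.23 and 0.25 log2, at the same adjusted p. The complex II genes moved by -0.09 to 0.06 log2 in GFP- cells and by 0.02 to 0.09 in GFP+ cells.

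Values of the groups of 4 did not overlap for 0 of the 93 genes in GFP+ cells, against 2.21% of all genes, and for 3 in GFP- cells, against 2.57%. The 3 were Ndufaf8 (0.13 log2 higher after octanol), Atp5b (-0.08) and Ndufa10 (-0.20). The differences were small and mostly above 0, in 77 genes in GFP+ cells (51.8% of all genes) and 68 in GFP- cells (46.2% of all genes), and in both for 58. Their medians were 0.07 log2 in GFP+ cells against 0.01 for all genes, and 0.04 in GFP- cells against -0.02. The family's median was 0.07 and 0.06 log2 above that of all genes in GFP+ and GFP- cells, and 0.08 in both after quantile normalization. Shifts of this kind were not particular to the family. Among lists given below, they were 0.07 and 0.03 for mitochondrial ribosome genes and 0.13 and 0.12 for cytosolic ribosome genes. For coenzyme Q synthesis genes they were -0.02 and -0.06. All 93 genes share the same arrays, so these counts are a description.

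**Figure D3:**
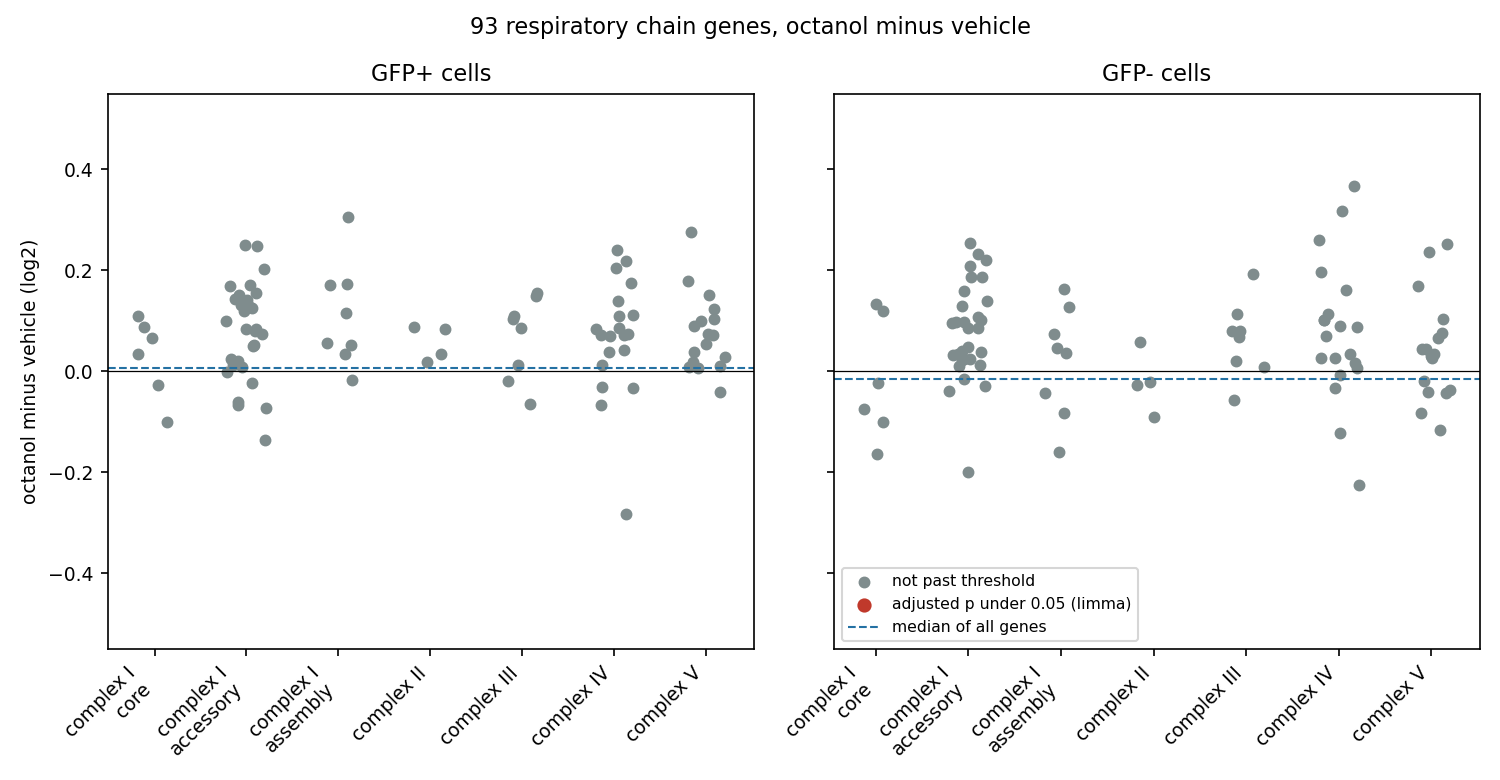
Each point is 1 of the 93 genes, placed by role, and its height is the octanol minus vehicle difference in log2 units in GFP+ (left) and GFP- cells (right), 4 arrays a group. The dashed line is the median of all genes, 0.01 and -0.02; no gene passed the limma threshold, and all points lie within 0.5 log2 of 0.

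The family's median difference varied between pools. The median GFP+ minus GFP- difference of the 93 genes was 0.29, 0.02, -0.04 and 0.12 log2 in vehicle pools 1 to 4 and -0.04, -0.01, 0.21 and 0.25 in octanol pools 1 to 4. The number of genes with a difference above 0 accordingly ran from 40 in octanol pool 1 to 88 in octanol pool 4. The median of all genes stayed between 0.08 and 0.16 in the same pools. In vehicle cells 22 genes were above 0 in all 4 pools and 7 below it in all 4, against 30.1% and 17.6% of all genes. In octanol cells 27 and 4 did so, against 30.8% and 16.4% of all genes.

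**Figure D4:**
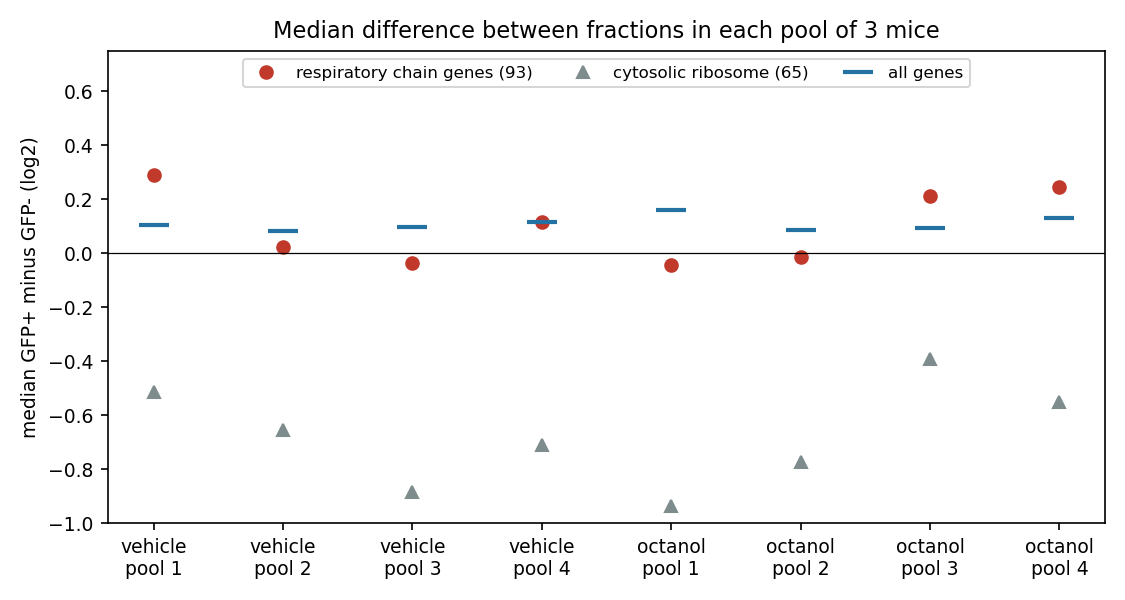
Each mark is the median GFP+ minus GFP- difference, in log2 units, of a list within 1 pool of 3 mice, for the 93 respiratory chain genes (circles), 65 cytosolic ribosome genes (triangles) and all genes (bars). The circles fall on both sides of 0, from -0.04 to 0.29, while the triangles lie between -0.94 and -0.39 in all 8 pools.

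Other genes of mitochondrial energy metabolism were taken from lists written beside the family, and their counts stand beside 28.2% of all genes called after vehicle and 29.9% after octanol. Among 39 assembly factors outside the naming rule 10 were higher and 0 lower after vehicle, and 11 and 0 after octanol, or 25.6% and 28.2% called, with medians of 0.16 and 0.17 log2 against 0.13 and 0.14 for all genes. They include Ttc19 and Uqcc1 of complex III, higher by 0.65 and 0.58 log2 after vehicle (limma adjusted p = 0.00443 and 0.0168), and Lyrm7 of the same complex, higher by 0.53 (0.0108). Of 12 coenzyme Q synthesis genes 1 was higher after vehicle and 3 after octanol, and of 5 electron carriers 0 and 1, with 0 lower in either list. Among 17 pyruvate dehydrogenase and citric acid cycle genes 0 were higher and 1 lower after vehicle, and 5 and 1 after octanol. The lower gene was Idh2, the mitochondrial NADP-dependent isocitrate dehydrogenase (-0.62 and -0.51 log2, limma adjusted p = 0.0140 and 0.0321). Of 10 mitochondrial carriers and porins 0 were higher and 1 lower after vehicle, and 1 and 1 after octanol. With arrays centred on odorant receptors 0 of the 39 assembly factors were higher and 3 and 15 were lower. In that setting 0 were higher in each other list of this paragraph too. Of the pyruvate dehydrogenase and citric acid cycle genes 1 and 6 were lower, and of the electron carriers 1 and 3. Of the carriers and porins 3 and 7 were lower, and of the coenzyme Q synthesis genes 0 and 0.

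Regulators, glycolysis and antioxidant enzymes held single genes with large differences, while 28.2% and 29.9% of all genes were called after vehicle and octanol. Of 13 genes of biogenesis and mitochondrial transcription, 2 were higher after vehicle (15.4%) and 4 after octanol (30.8%). The coactivators of mitochondrial biogenesis Ppargc1a and Ppargc1b were higher by 0.88 and 0.58 log2 after vehicle (limma adjusted p = 0.000287 and 0.00251) and by 0.80 and 0.59 after octanol (0.000574 and 0.00216). Of 15 glycolysis genes 2 were higher and 3 lower after vehicle (33.3%), and 3 and 4 after octanol (46.7%). The neuronal enolase Eno2 differed by 0.80 log2 and lactate dehydrogenase Ldha by -3.12 after vehicle (limma adjusted p = 0.00148 and 5.5e-07). Of 10 antioxidant enzymes 3 were lower and 0 higher after each exposure (30.0%): Gpx1 (-3.79 log2 after vehicle), Cat (-2.93) and Gsr (-1.49). The summed markers of neutrophils given above moved the same way as these enzymes, and their part was not tested. With arrays centred on odorant receptors, 1 of the 13 biogenesis and transcription genes was higher after each exposure, and 4 and 7 were lower. In the same setting 1 of the 15 glycolysis genes was higher after each, and 4 and 8 were lower. Of the 10 antioxidant enzymes 0 were then higher, and 3 and 8 were lower.

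The ribosomes give a scale for the family. Of 76 mitochondrial ribosome genes 5 were higher and 0 lower after vehicle, and 9 and 1 after octanol. They had medians of 0.09 and 0.17 log2, and 6.58% and 13.2% were called, against 28.2% and 29.9% of all genes. With arrays centred on their median 60 and 59 of the 76 were higher and 0 lower. With arrays centred on odorant receptors 0 were higher, and 6 and 32 were lower. Of 65 cytosolic ribosome genes 0 were higher and 52 lower after vehicle (80% called), and 0 and 54 after octanol (83.1% called). Their medians were -0.70 and -0.69. Under the deposited values and the 3 other scalings 35 to 59 of the 65 were lower.

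**Figure D5:**
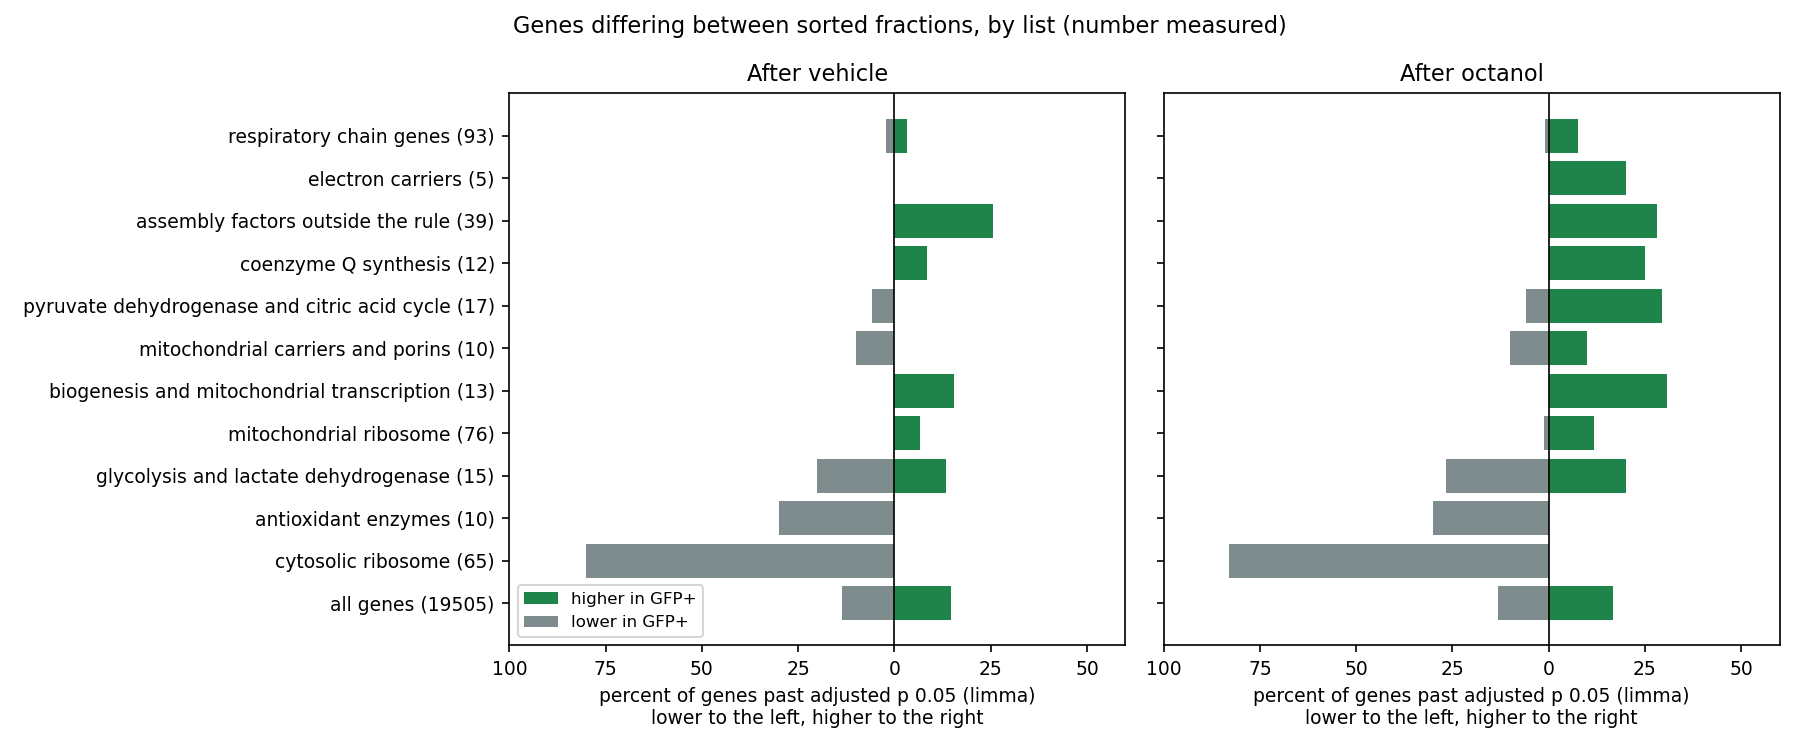
Bars give the percent of each list's genes with a limma adjusted p under 0.05 between GFP+ and GFP- cells, higher to the right (green) and lower to the left (grey), after vehicle and octanol, with the number measured in brackets. With the values as deposited, which are drawn here, the 93 respiratory chain genes have 5.38% and 8.60% called, against 28.2% and 29.9% of all genes. Other scalings gave other shares.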

How the data were processed

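The authors deposited 1 log2 signal per probe set and array, made in Affymetrix Expression Console per the submitters' processing notes, and these were used unaltered. Version and settings: not given in the sources used here. Of 28846 probe sets 19572 carried exactly 1 gene symbol, and the one with the highest mean over 16 arrays was kept per gene, which left 19505 genes. All comparisons were fitted over all genes with limma 3.58.1 (lmFit and eBayes) in R 4.3.3, with Benjamini-Hochberg adjustment over all genes and a threshold of 0.05. The fractions were compared in 1 fit of all 16 arrays, blocked on the pool, which left 6 residual degrees of freedom, and octanol with vehicle on the 8 arrays of each fraction. The pairing is inferred from 24 mice making 8 pools of 3. Within a pool, GFP+ and GFP- residuals had correlations of 0.0779 to 0.222, with 6 of 8 over 0.1. Arrays of the same number and fraction but the other exposure had 0.0582 to 0.332, so the check does not settle the pairing. Nothing says that pools of a group were processed apart, and p-values measure the spread between these arrays.

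Named genes are those past the threshold with the same sign in all 4 pools (at most 10 each way), or, for octanol, the 4 with the smallest p, with complex II, both forms of each complex IV pair, the highest gene of each complex and up to 4 called genes of each other list. The members, lists and markers were chosen with earlier results of these data known. The script was tested on simulated data. Alternatives were other scalings, a background filter, a trended prior, other probe set and member rules, no block, and leaving out each pool. The number of arrays limits the precision.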

Additional observations from a re-analysis of the deposited data

Results flagged for a closer look

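In 11 of 148 groups of 4 arrays tested, the highest or lowest array stood far from the other 3 by Dixon's 95% criterion, where chance gives about 1 in 20. The median of the 93 genes was low in the vehicle GFP+ array of pool 3 (13.07), high in the vehicle GFP- array of pool 2 (13.38) and low in the octanol GFP- array of pool 4 (13.12). In the same vehicle GFP+ array of pool 3, Atp5g2 was low (14.86), Cox7c was low (16.37) and Atp5e was high (9.55). In vehicle GFP- cells, pool 2 was low for Cox6b2 (6.18) and high for Ndufv1 (14.60), and pool 3 was high for Atp5b (17.26) and Atp5mpl (14.99). In octanol GFP- cells pool 4 was high for Ndufa4l2 (4.22), under background. Leaving out vehicle pool 3 moved Atp5g2 from -0.30 to -0.26 log2 (limma adjusted p = 0.109), and leaving out any pool kept Cox6b2 past the threshold.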

How the results depend on the processing

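Counts are of respiratory chain genes past limma's adjusted p of 0.05. After vehicle the main counts were 3 higher and 2 lower. They became 10 higher with quantile normalization, 75 higher and 1 lower with arrays centred on their median, 0 higher and 9 lower with arrays centred on odorant receptors, 8 higher with a trended prior, and 1 higher with no replicate block. After octanol the main counts were 7 higher and 1 lower. They became 68 higher with arrays centred on their median, 0 higher and 49 lower with arrays centred on receptors, 12 higher among genes above background, 15 higher and 3 lower with a trended prior, and 4 higher for structural subunits alone, which are fewer genes. Leaving out 1 pool gave 1 to 2 higher and 1 to 2 lower after vehicle, and 2 to 9 higher and 1 to 1 lower after octanol. For the other shifts the cause was not tested. The octanol comparisons gave 0 calls in every alternative run, also with the replicate number as a block. The difference between the family's median and that of all genes ranged over left-out pools from -0.0743 to 0.0088 after vehicle and from -0.0893 to 0.023 after octanol, from -0.0619 to 0.059 for the octanol effect on the difference, and from 0.0194 to 0.0986 in GFP+ and 0.0283 to 0.1117 in GFP- cells for octanol. A change of sign between values that both missed the threshold is not counted as reversed.

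Reversed single genes, all through centring, were Atp5b (0.32), Atp5g2 (0.0396) and Uqcrb (0.23) after vehicle and Cox6a1 (0.26) and Cox8a (0.27) after octanol with arrays centred on their median. With arrays centred on receptors after octanol they were Atp5b (-0.41), Cox6b1 (-0.46), Cox7b (-0.46), Cox7c (-0.47), Ndufa4 (-0.47), Ndufaf2 (-0.13), Ndufaf4 (-0.36), Ndufaf5 (-0.0742), Ndufb6 (-0.19), Ndufs5 (-0.086), Sdhc (-0.0938) and Uqcrb (-0.46). The other values of named genes that crossed the threshold became stronger in 66 and weaker in 51 cases, in the same direction. Genes under background limit what can be said of Cox6b2, Cox8b, Cox4i2, Cox7b2 and Ndufa4l2.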
